A study of Mus musculus with 6 samples.

Results

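Genes that make, import, move and export cholesterol were followed in mouse liver after treatment with FGF19. The set was a list of 34 gene names taken by symbol: the enzymes of the mevalonate and sterol steps, the proteins that control the transcription factor SREBP-2, and genes of low-density lipoprotein (LDL) uptake, sterol transport, efflux and esterification. Of these names, 33 had a row among the 23284 genes in the count files; Msmo1 had none, and the same gene was found there under its older symbol Sc4mol. A total of 32 passed the filter on low counts and were tested among 12559 genes. The remaining gene, Hmgcs1, was listed at 0 in every library.

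FGF19 is the human form of a hormone that the small intestine releases after a meal and that acts on the liver. The study measured gene expression across the liver to examine how this hormone represses genes of fat synthesis. The mice were C57BL/6, were 8 weeks old and had been fasted overnight. They then received either vehicle (n = 3) or FGF19 at 1 mg/kg (n = 3), and livers were taken after 6 h without food. All 6 animals were therefore fasted, no genotype or diet differed between the groups, and each library was made from 1 liver.

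Cholesterol is built from acetyl-CoA through mevalonate and isoprenoid units to squalene, which is closed into lanosterol and then trimmed and reduced to cholesterol. Most enzymes of this route are targets of SREBP-2, a membrane-bound precursor that SCAP escorts from the endoplasmic reticulum to the Golgi for cleavage when sterols are low. INSIG1 and INSIG2 hold SCAP back when sterols are plentiful. The liver disposes of cholesterol as bile acids or, through the transporter pair ABCG5 and ABCG8, directly into bile.

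Total counts were between 18994654 and 22920056 per library, and 3 counts, the limit that a count of 0 allows, corresponded to 0.136 to 0.159 CPM (counts divided by the scaled library total, in units of 1000000). Such limits cover counting error only. Cyp7a1, the rate-limiting enzyme of bile acid synthesis and a known target of this hormone, served as the check of the treatment labels: it fell from 268 ± 44.1 to 11.4 ± 1.75 CPM (SD, n = 3), a log2 fold change of -4.56 (quasi-likelihood test of edgeR, p-values adjusted by Benjamini-Hochberg over the genes tested, adjusted p = 9.41e-07). Hepatocyte markers summed to between 98004 and 103137 CPM in the vehicle group and between 90715 and 101248 CPM in the FGF19 group, and none of the 6 was called. Among 7 Kupffer cell markers, Marco and Cd68 rose and Clec4f and Vsig4 had log2 fold changes of -0.29 and -0.54 without a call; the list summed to 184 to 232 CPM against 191 to 225 CPM. The neutrophil gene S100a9 rose, and the 5 markers of that cell with a row in the files, of which 2 were tested, summed to 2.19 to 3.18 CPM against 5.70 to 8.41 CPM. Colec11 fell among 6 stellate cell markers, which summed to 217 to 296 CPM against 200 to 245 CPM. The tested endothelial (6), cholangiocyte (5), lymphocyte (4), red blood cell (1) and adipocyte (1) markers gave no call. Another 4 red blood cell markers had 0 counts in every library. Alas2, the red blood cell marker that was tested, had a log2 fold change of -0.51 (edgeR, adjusted p = 0.0645). The part of all these cell types in the results below was not tested. In whole liver, fewer cells of a type and less RNA per cell cannot be told apart.

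The response of the cholesterol genes was mixed in direction and limited to a few of them. After FGF19, Cyp51, Fdft1 and Acat2 fell and Insig2 and Abcg8 rose, so that 5 of the 32 tested genes (15.6%) passed an adjusted p of 0.05, against 7.41% of all genes tested. The 3 that fell compare with 2.84% of all genes in that direction, and the 2 that rose with 4.56%. At an unadjusted p of 0.01, the threshold used in the study, 6 were lower and 2 higher, where 4.98% and 6.20% of all genes were; the lower set added Tm7sf2, Dhcr7 and Insig1. The 3 values of each group did not overlap in 13 of the 32 genes (40.6%), against 28.3% of all genes. Of those 13, 8 were lower after FGF19 (Acat2, Mvk, Pmvk, Fdft1, Cyp51, Tm7sf2, Insig1 and Scarb1) and 5 higher (Lss, Lbr, Insig2, Abcg5 and Abcg8), where 13.8% and 14.5% of all genes were.

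**Figure D1:**
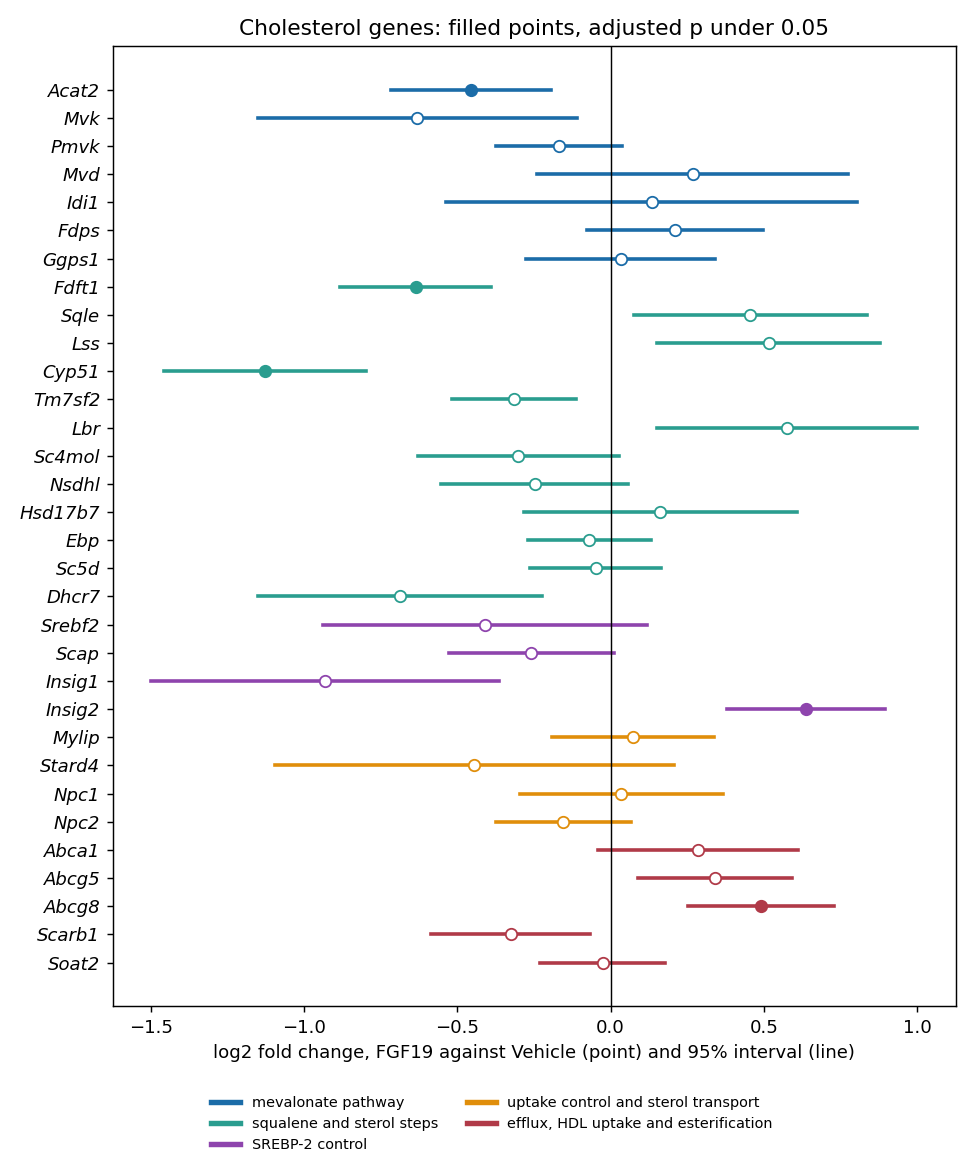
Log2 fold change (FGF19 minus vehicle) of each tested cholesterol gene by edgeR's quasi-likelihood fit, with its 95% confidence interval, 3 mice per group, coloured and ordered by role in the pathway, with filled points for an adjusted p under 0.05. Cyp51 lies furthest below 0 at -1.13 and Insig2 furthest above it at 0.64, and genes of the same role fall on both sides of 0.

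Fold changes of both signs were present within each of the 5 roles. The median log2 fold change was -0.06 over the 32 tested genes and less than 0.01 from 0 over all genes tested. It was 0.03 for 7 mevalonate genes, -0.16 for 12 squalene and sterol genes, -0.33 for the 4 genes of SREBP-2 control, -0.06 for 4 genes of uptake and transport, and 0.29 for 5 genes of efflux, high-density lipoprotein (HDL) uptake and esterification. Together the 19 tested synthesis enzymes summed to between 1000.5 and 1058 CPM in the vehicle mice and between 802 and 919 CPM in the FGF19 mice, without overlap. That sum is weighted to the abundant enzymes and restates genes given singly below, and no like sum over other genes was formed. Among its larger terms, mean CPM went from 112 to 51.1 for Cyp51, 82.8 to 51.5 for Dhcr7 and 75.4 to 48.5 for Fdft1. Sc5d and Ebp, larger still, went from 214 to 207 and from 174 to 166. Of the 19, 11 had a lower mean and 8 a higher one, and the median was -0.07.

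Acat2, the cytosolic thiolase that joins acetyl-CoA units at the entry of the route, was the only mevalonate gene called. It gave 21.9, 17.7 and 19.0 CPM in the vehicle mice and 15.2, 13.5 and 14.1 CPM in the FGF19 mice. The groups did not overlap, and Acat2 fell by 0.46 on the log2 scale (SE 0.116, edgeR's quasi-likelihood test, adjusted p = 0.0458). In mm9 the gene lies at chr17:13135908-13153591 on the minus strand. The call was close to the threshold: it was lost at adjusted p values of 0.14, 0.0578 and 0.136 without vehicle replicates 1, 2 and 3, and of 0.0987 and 0.180 without FGF19 replicates 1 and 2 (edgeR). It was also lost without TMM scaling, at an adjusted p of 0.0511, and with a replicate block in the fit, at 0.0967 (edgeR).

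The kinases that follow had lower values after FGF19 that did not pass the test. Mvk, mevalonate kinase, was at 12.3, 12.2 and 21.9 CPM against 10.9, 8.23 and 10.9 CPM. Vehicle replicate 3 stood well above the other vehicle mice, the groups did not overlap, and the log2 fold change of -0.63 had a 95% interval of -1.15 to -0.11 (edgeR, adjusted p = 0.14). Without that mouse the log2 fold change of Mvk was -0.29. Pmvk, phosphomevalonate kinase, varied little, with 24.7, 24.5 and 25.4 CPM against 21.4, 21.5 and 23.6 CPM and a log2 fold change of -0.17 (edgeR, adjusted p = 0.316).

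Further along, the isoprenoid enzymes had means at or above the vehicle level and none was called. Fdps, which makes farnesyl diphosphate, gave 29.2, 32.7 and 25.2 CPM against 37.0, 35.0 and 28.8 CPM, a log2 fold change of 0.21 with overlapping groups, which was 0.12 without vehicle replicate 3 and 0.14 without FGF19 replicate 1. Mvd, the decarboxylase, and Ggps1, which makes geranylgeranyl diphosphate, had log2 fold changes of 0.27 and 0.03. That of Mvd was 0.52 and 0.09 without vehicle replicates 2 and 3 and 0.41 without FGF19 replicate 3. Idi1, the isomerase of the isoprenoid units, was at 5.77, 4.72 and 5.61 CPM against 7.21, 7.49 and 2.99 CPM. FGF19 replicate 3 was the lowest of all 6 for Idi1 while the other FGF19 mice were the highest, and the 95% interval ran from -0.54 to 0.80.

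The early mevalonate gene Hmgcs1, HMG-CoA synthase, was not measurable. The mm9 annotation of the count files places it on the unplaced sequence of chromosome 13 only, in 2 copies whose 11 exons have equal lengths, and reads that map to several places were not counted. All 60 genes that the files list only on such sequences had 0 counts in all 6 libraries, so its 0 carries no information on its level in these livers.

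At the branch to sterols, consecutive enzymes had fold changes of opposite sign. Fdft1, squalene synthase, joins farnesyl units into squalene and commits them to sterols. Its values were 70.3, 76.9 and 79.1 CPM in the vehicle mice and 56.2, 44.99 and 44.4 CPM in the FGF19 mice, so every FGF19 mouse lay below every vehicle mouse. Fdft1 fell by 0.64 on the log2 scale (SE 0.110, edgeR's quasi-likelihood test, adjusted p = 0.00938), from 75.4 ± 4.60 to 48.5 ± 6.68 CPM (SD, n = 3). The gene lies at chr14:63763988-63796630 on the minus strand of mm9. Its exons share 773 bases with Ctsb on the other strand, where reads could not be assigned, and Ctsb itself had a log2 fold change of -0.03. Without vehicle replicate 3 the adjusted p of Fdft1 was 0.0540 at a log2 fold change of -0.60.

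Sqle, squalene epoxidase, and Lss, lanosterol synthase, take the following steps, and both had higher means. Sqle was at 20.3, 20.0 and 15.7 CPM against 30.1, 27.4 and 19.4 CPM. FGF19 replicate 3 fell within the vehicle range and the other FGF19 mice lay above it, giving a log2 fold change of 0.46 with a 95% interval of 0.07 to 0.84 (edgeR, adjusted p = 0.144). Lss was at 13.5, 14.4 and 11.6 CPM against 21.5, 20.4 and 14.4 CPM. Its groups touched without overlapping, with FGF19 replicate 3 again the lowest of its group and at the level of the highest vehicle mouse. The log2 fold change of Lss was 0.52, with a 95% interval of 0.15 to 0.88 (edgeR, adjusted p = 0.0905). Without FGF19 replicate 3, both genes passed, at adjusted p values of 0.0141 for Sqle and 0.00793 for Lss (edgeR). With all 6 libraries, Lss also passed by the likelihood ratio and exact tests of edgeR, at adjusted p values of 0.0421 and 0.0439, and by none of the 7 other settings.

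Cyp51, lanosterol 14-demethylase, which removes the first methyl group from lanosterol, had the largest log2 fold change in size among the tested cholesterol genes. The vehicle mice were close together at 112, 115 and 108 CPM, and the FGF19 mice were at 60.2, 54.7 and 38.5 CPM. All FGF19 values lay far under the vehicle range, with FGF19 replicate 3 the lowest. Cyp51 fell from 112 ± 3.07 to 51.1 ± 11.3 CPM (SD, n = 3), a level 2.18-fold lower. The log2 fold change was -1.13 (SE 0.147, 95% interval -1.46 to -0.80, edgeR's quasi-likelihood test, adjusted p = 0.0023). Its adjusted p stayed between 0.000273 and 0.0140 when each library was left out in turn. The rank of Cyp51 depended on the libraries: without vehicle replicate 2, Insig1 was at -1.13 and Cyp51 at -1.11.

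**Figure D2:**
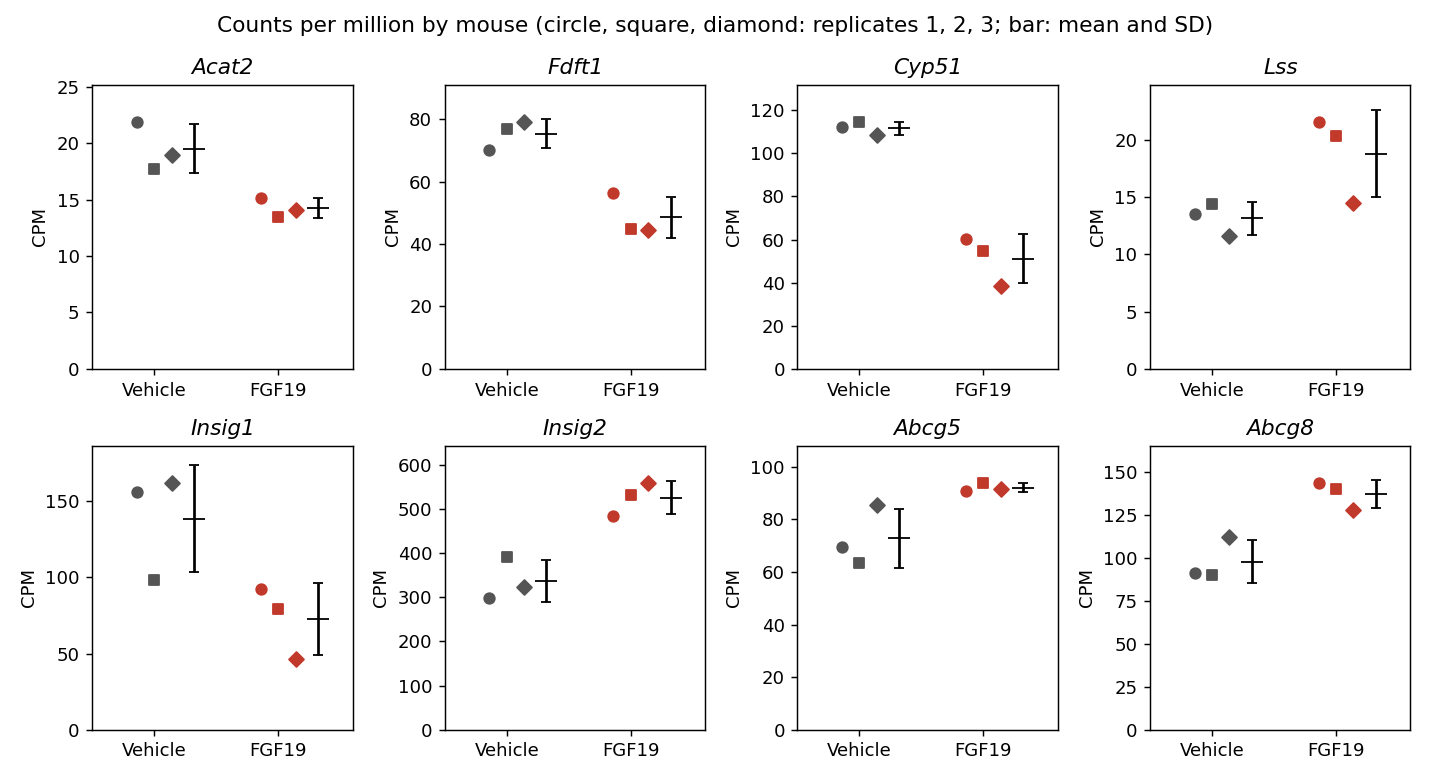
CPM of selected cholesterol genes in each of the 6 mice (circle, square and diamond for replicates 1, 2 and 3), with the mean and SD of each group of 3. Cyp51 and Fdft1 separate downward after FGF19, Insig2 and Abcg8 upward, and FGF19 replicate 3 of Lss lies at the top of the vehicle range.

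Levels per length of exon (RPKM, the CPM divided by the exon length in kilobases) allow neighbouring enzymes to be set side by side in each mouse. The ratio of Cyp51 to Lss, whose product is the substrate of Cyp51, was 5.92, 5.69 and 6.68 in the vehicle mice and 1.99, 1.91 and 1.90 in the FGF19 mice. The ratio of Fdft1 to Sqle was 3.32, 3.70 and 4.83 against 1.79, 1.57 and 2.20. Neither ratio overlapped between the groups. RPKM divide by the full exon length, which for Fdft1 (2862 bases) includes 773 bases where reads could not be assigned. For Lss (3102 bases) it includes 188 such bases. The levels of Fdft1 and Lss beside other genes may therefore be understated. The ratios restate the values given above for these genes, of which Lss and Sqle were not called, and the pairs were chosen after their values were seen, so no test is given.

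The promoters of Cyp51 and Lss are shown because they serve adjacent steps and their fold changes had opposite signs. Sequences are the 250 bases before the RefSeq start of each gene in GRCm38.p6, read 5′ to 3′ on the gene's strand; entries were found for 26 of the 34 names. Capitals mark CCAAT, the letters of the box bound by NF-Y, on either strand (ATTGG on the other), and CACGTG, an E-box. The first is Cyp51, at chr5:4104698-4104947 on the minus strand, and the second is Lss, at chr10:76531355-76531604 on the plus strand.
Cyp51: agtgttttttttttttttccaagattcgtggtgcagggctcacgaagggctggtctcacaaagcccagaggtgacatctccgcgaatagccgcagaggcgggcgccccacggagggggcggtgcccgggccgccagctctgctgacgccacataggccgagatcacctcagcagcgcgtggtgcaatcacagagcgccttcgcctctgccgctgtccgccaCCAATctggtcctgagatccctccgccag
Lss: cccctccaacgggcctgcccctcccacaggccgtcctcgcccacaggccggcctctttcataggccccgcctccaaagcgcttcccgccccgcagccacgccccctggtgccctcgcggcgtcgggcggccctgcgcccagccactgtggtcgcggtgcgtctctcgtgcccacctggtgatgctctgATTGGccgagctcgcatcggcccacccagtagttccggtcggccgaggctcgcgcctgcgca

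Each of these windows held 1 CCAAT. Across the pathway, CCAAT was present in 22 of 33 windows of these genes (66.7%), against 33.9% of the 32851 windows in the RefSeq table. CACGTG, which reads the same on both strands and was counted once, was present in 6 of the 33 (18.2%), those of Abca1, Dhcr7, Hsd17b7, Insig1, Sc5d and Scap, against 6.02% of all windows. The sterol regulatory element in the form TCACNCCAC was found in 1 window, that of Hmgcs1, against 1.05% of all windows, and the LXR element, a direct repeat of AGGTCA with 4 bases between its copies, in 0 of the 33 against 0.0152% of all. All motifs were searched on both strands and no matches overlapped. A match describes letters in the window and is not a measured site. Only the letters given were searched, so an element in another form would be missed. A window without a match may therefore still hold an element of that kind.

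The enzymes that follow Cyp51 mostly had lower means, and none was called. Tm7sf2 and Lbr reduce the same double bond of the sterol ring. Tm7sf2, at 85.8, 77.4 and 81.5 CPM against 66.9, 60.1 and 69.6 CPM, was lower in every FGF19 mouse with a log2 fold change of -0.32 (edgeR, adjusted p = 0.0685). Lbr, which also anchors chromatin at the nuclear envelope, was far less abundant, at 5.15, 3.92 and 3.92 CPM against 6.84, 7.40 and 5.16 CPM. The groups of Lbr did not overlap, but by the narrowest of gaps, and its log2 fold change was 0.58 (edgeR, adjusted p = 0.104). Without FGF19 replicate 3, the adjusted p was 0.0248 for Tm7sf2 and 0.0272 for Lbr (edgeR).

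Dhcr7, which catalyses a last reduction to cholesterol, was at 96.3, 52.0 and 100 CPM in the vehicle mice and 49.9, 51.1 and 53.5 CPM in the FGF19 mice. The FGF19 mice were tightly grouped, and vehicle replicate 2 lay at their level while the other vehicle mice were well above it. The log2 fold change was -0.69 (SE 0.207, edgeR, adjusted p = 0.0799). Without vehicle replicate 2 it was -0.93, at an adjusted p of 0.0012 (edgeR), while the fits without any 1 of the other libraries did not call Dhcr7, with adjusted p values up to 0.269 at a log2 fold change of -0.53 without vehicle replicate 3. Of 9 other settings with all 6 libraries, 4 called Dhcr7, and the adjusted p ranged from 0.0104 (DESeq2) to 0.118 (limma-voom).

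The other sterol enzymes overlapped between the groups. Sc4mol, the C4 methyl oxidase, was at 76.5, 89.8 and 61.7 CPM against 69.4, 62.6 and 53.1 CPM, a log2 fold change of -0.30 that was -0.16 without vehicle replicate 2 and -0.20 without FGF19 replicate 3. Its partners in removing the C4 methyl groups, Nsdhl and Hsd17b7, had log2 fold changes of -0.25 and 0.16. Nsdhl was at -0.11 without vehicle replicate 2, and Hsd17b7 ranged from 0.03 without FGF19 replicate 2 to 0.38 without FGF19 replicate 3. Ebp, the sterol isomerase, and Sc5d, the desaturase, were the most abundant of the tested synthesis enzymes in RPKM and had log2 fold changes of -0.07 and -0.05. Their 95% intervals were -0.27 to 0.13 for Ebp and -0.26 to 0.16 for Sc5d. As for Fdft1, exons of Lss share 188 bases with a gene on the other strand, those of Npc1 share 164, and those of Tm7sf2 share 9 with a neighbour, and reads there were not assigned.

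The INSIG genes, which encode the proteins that retain SCAP, had fold changes of opposite sign. Insig2 was at 298, 391 and 324 CPM in the vehicle mice and 485, 531 and 560 CPM in the FGF19 mice, with every FGF19 mouse above every vehicle mouse. Insig2 rose 1.56-fold, from 338 ± 47.9 to 525 ± 37.5 CPM (SD, n = 3), a log2 fold change of 0.64 (SE 0.115, edgeR's quasi-likelihood test, adjusted p = 0.0114). It lies at chr1:123200930-123229157 on the minus strand of mm9. Without vehicle replicate 3 the log2 fold change was 0.61 at an adjusted p of 0.0651.

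Insig1, itself a target of SREBP-2, was at 156, 98.0 and 162 CPM against 92.6, 79.3 and 46.3 CPM. The highest FGF19 mouse lay just under vehicle replicate 2, the lowest of the vehicle mice, and both groups were widely spread. The mean was 139 ± 35.3 CPM in the vehicle group and 72.7 ± 23.8 CPM in the FGF19 group (SD, n = 3). The log2 fold change of -0.93 had a 95% interval of -1.50 to -0.36 and narrowly missed the threshold (edgeR, adjusted p = 0.0574). Without vehicle replicate 2 it was -1.13 with an adjusted p of 0.0299 (edgeR), while the fits without any 1 of the other libraries did not call Insig1, with adjusted p values up to 0.198 without vehicle replicate 3. Of 9 other settings with all 6 libraries, 3 called Insig1, and the adjusted p ranged from 0.00644 (likelihood ratio test of edgeR) to 0.0914 (DESeq2). The gene lies at chr5:28397952-28405202 on the plus strand of mm9.

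Per length of exon, the ratio of Insig2 to Insig1 was 2.01, 4.18 and 2.10 in the vehicle mice and 5.50, 7.02 and 12.7 in the FGF19 mice. Insig2 was the more abundant of the pair in every liver, and the ratio was higher in each FGF19 mouse than in any vehicle mouse. Their summed level was 177, 192 and 190 RPKM against 227, 240 and 239 RPKM, higher in every FGF19 mouse. No test is given, since the ratio and the sum were formed after the values were seen.

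The promoters of the pair are given for the same reason, as genes of 1 function with opposite differences. RefSeq lists 3 starts for Insig2, and the counts per gene do not show which is used; the window shown, at chr1:121332590-121332839 on the minus strand of GRCm38.p6, is the only 1 of the 3 with a match, and it held CCAAT at 3 places. The Insig1 window, at chr5:28071162-28071411 on the plus strand, held 1 CCAAT and 1 CACGTG, in capitals.
Insig1: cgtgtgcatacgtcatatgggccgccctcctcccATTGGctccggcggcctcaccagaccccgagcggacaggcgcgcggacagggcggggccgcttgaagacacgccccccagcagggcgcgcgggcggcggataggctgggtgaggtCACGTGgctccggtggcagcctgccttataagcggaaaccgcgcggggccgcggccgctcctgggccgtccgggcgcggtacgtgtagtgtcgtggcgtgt
Insig2: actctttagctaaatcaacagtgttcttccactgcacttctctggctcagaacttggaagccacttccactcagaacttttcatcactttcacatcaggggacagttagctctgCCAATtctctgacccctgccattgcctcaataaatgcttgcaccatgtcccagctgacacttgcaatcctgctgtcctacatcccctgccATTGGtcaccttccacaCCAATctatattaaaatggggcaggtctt

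Srebf2, which encodes SREBP-2, was at 49.5, 48.9 and 95.7 CPM in the vehicle mice and 50.1, 53.2 and 42.7 CPM in the FGF19 mice. Vehicle replicate 3 stood apart from the 5 other mice, which were close together. The log2 fold change of Srebf2 was -0.41 with a 95% interval of -0.94 to 0.12, and it was -0.01 without that mouse. Scap was at 130, 164 and 154 CPM against 134, 108 and 133 CPM, with overlapping groups and a log2 fold change of -0.26 (edgeR, adjusted p = 0.235), which was -0.15 without FGF19 replicate 2.

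Neither the tested control of LDL uptake nor the sterol carriers gave a call. Mylip, the LXR-induced ubiquitin ligase that marks the LDL receptor for degradation, ranged from 16.3 to 20.8 CPM over the 6 mice and had a log2 fold change of 0.07. Stard4, a cytosolic sterol carrier and SREBP-2 target, was at 22.0, 16.3 and 16.5 CPM against 18.1, 15.3 and 6.93 CPM. FGF19 replicate 3 was the lowest by a wide margin, and the 95% interval of the log2 fold change ran from -1.10 to 0.21. Stard4 had a log2 fold change of -0.45 with all mice, which was -0.13 without FGF19 replicate 3, -0.72 without FGF19 replicate 1 and -0.29 without vehicle replicate 1. Npc1 and Npc2, which hand cholesterol out of the lysosome, had log2 fold changes of 0.04 and -0.15, and the groups overlapped for both.

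Of the export genes, the paired half-transporters both had higher values after FGF19, and 1 of them passed the test. Abcg8 was at 91.2, 90.1 and 112 CPM in the vehicle mice and 144, 140 and 128 CPM in the FGF19 mice, without overlap. It rose 1.40-fold, from 97.8 ± 12.4 to 137 ± 8.20 CPM (SD, n = 3), with a log2 fold change of 0.49 (SE 0.106, edgeR's quasi-likelihood test, adjusted p = 0.0249). The adjusted p was 0.0890 and 0.0837 without vehicle replicates 1 and 2, and 0.0968 and 0.0837 without FGF19 replicates 1 and 2, and the call remained without replicate 3 of either group. With all 6 libraries, a replicate block in the fit ended the call of Abcg8, at an adjusted p of 0.0685 (edgeR). Abcg5 was at 69.5, 63.5 and 85.3 CPM against 90.7, 94.0 and 91.8 CPM. Its FGF19 values were tightly grouped and all above the vehicle range, and the log2 fold change was 0.34 with a 95% interval of 0.09 to 0.59 (edgeR, adjusted p = 0.105).

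The pair is transcribed in opposite directions from neighbouring starts, in mm9 Abcg5 at chr17:85057574-85082263 on the minus strand and Abcg8 at chr17:85082471-85099673 on the plus strand. Shown are the 109 bases between the RefSeq start of Abcg5 and the nearer of the 2 RefSeq starts of Abcg8. They are given because 1 interval faces both genes, lie at chr17:84683012-84683120 in GRCm38.p6 and are read on the plus strand. None of the searched letters is in this interval, so nothing is in capitals. The 250 bases before the same Abcg8 start held CCAAT at 2 places, both outside the interval on its Abcg5 side. The 250 bases before the Abcg5 start held no match.
Abcg5-Abcg8 interval: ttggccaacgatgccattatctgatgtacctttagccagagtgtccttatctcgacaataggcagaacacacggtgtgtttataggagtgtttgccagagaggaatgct

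Per length of exon, Abcg5 and Abcg8 were at similar levels in each liver. The ratio of Abcg5 to Abcg8 was 1.23, 1.14 and 1.23 in the vehicle mice and 1.02, 1.08 and 1.16 in the FGF19 mice, and the groups overlapped.

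Abca1, the transporter that loads cholesterol onto nascent HDL, was at 133, 119 and 129 CPM against 171, 177 and 117 CPM. FGF19 replicate 3 was the lowest of all 6 mice while the other FGF19 mice were the highest. The log2 fold change of Abca1 was 0.29 (edgeR, adjusted p = 0.281), and it was 0.46 without that mouse, with an adjusted p of 0.0074. Without FGF19 replicates 1 and 2 it was 0.21 and 0.19. Scarb1, the HDL receptor, was at 371, 290 and 284 CPM against 258, 235 and 261 CPM, lower in every FGF19 mouse with a log2 fold change of -0.33 (edgeR, adjusted p = 0.126), which was -0.19 without vehicle replicate 1, the highest of the 6. Soat2, which esterifies cholesterol for storage and lipoproteins, had the log2 fold change nearest to 0 of all the tested cholesterol genes, at -0.03, with a 95% interval of -0.23 to 0.18.

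Levels per length spanned a wide range, from Insig2 at 134 ± 19.0 RPKM in the vehicle group to Lbr at 1.22 RPKM (SD, n = 3). Insig2 had the highest mean in both groups, although Scarb1 was slightly above it in vehicle replicate 1. In the vehicle livers it was followed by Scarb1 at 102, Ebp at 100.0 and Sc5d at 95.3 RPKM, which did not differ beyond their spread between mice, and then by Tm7sf2 at 55.2 and Insig1 at 52.4 RPKM, which likewise did not. Mvd, Ggps1, Idi1, Lss and Lbr were under 5 RPKM. Cyp51 went from 25.7 ± 0.704 to 11.7 ± 2.597 RPKM, and from rank 14 to rank 19 of the 32.

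**Figure D3:**
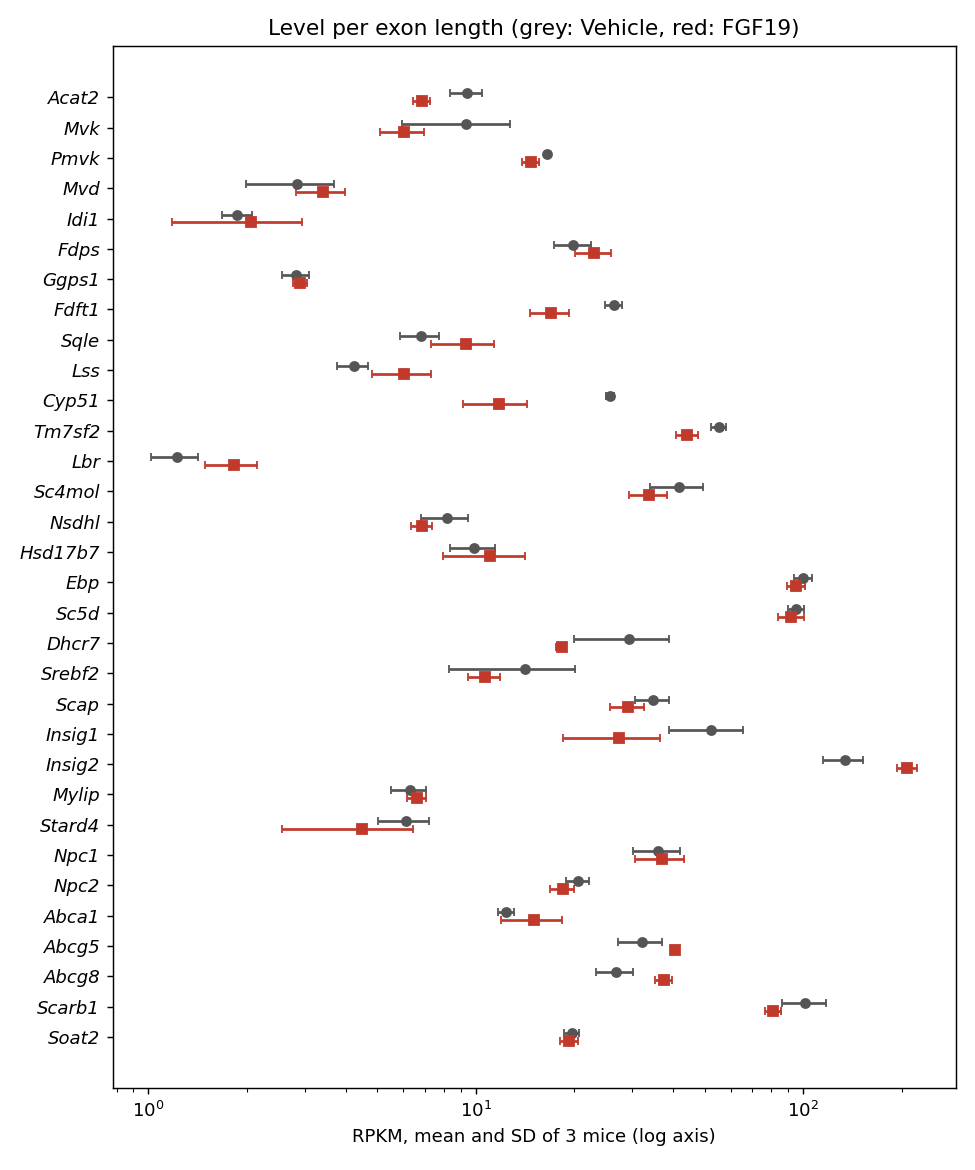
Mean RPKM of each tested cholesterol gene in vehicle and FGF19 livers on a log axis, with SD over 3 mice per group, in order of role. Insig2 has the highest mean in both groups and rises from 134 to 208 RPKM, and Lbr, Idi1, Ggps1 and Mvd are the lowest in both.

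Spread between mice of a group was uneven across the pathway. In the vehicle group, the highest mouse was more than 1.5 times the lowest for 5 of the 32 tested genes: Srebf2 (1.96), Dhcr7 (1.93), Mvd (1.81), Mvk (1.79) and Insig1 (1.65). In the FGF19 group this held for 7: Stard4 (2.61), Idi1 (2.51), Insig1 (2.00), Hsd17b7 (1.74), Cyp51 (1.57), Sqle (1.55) and Abca1 (1.51). FGF19 replicate 3 was the lowest of those 3 mice for all 7. It was the lowest of its group for 13 of the 19 tested synthesis enzymes (68.4%), against 39.3% of all genes.

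**Figure D4:**
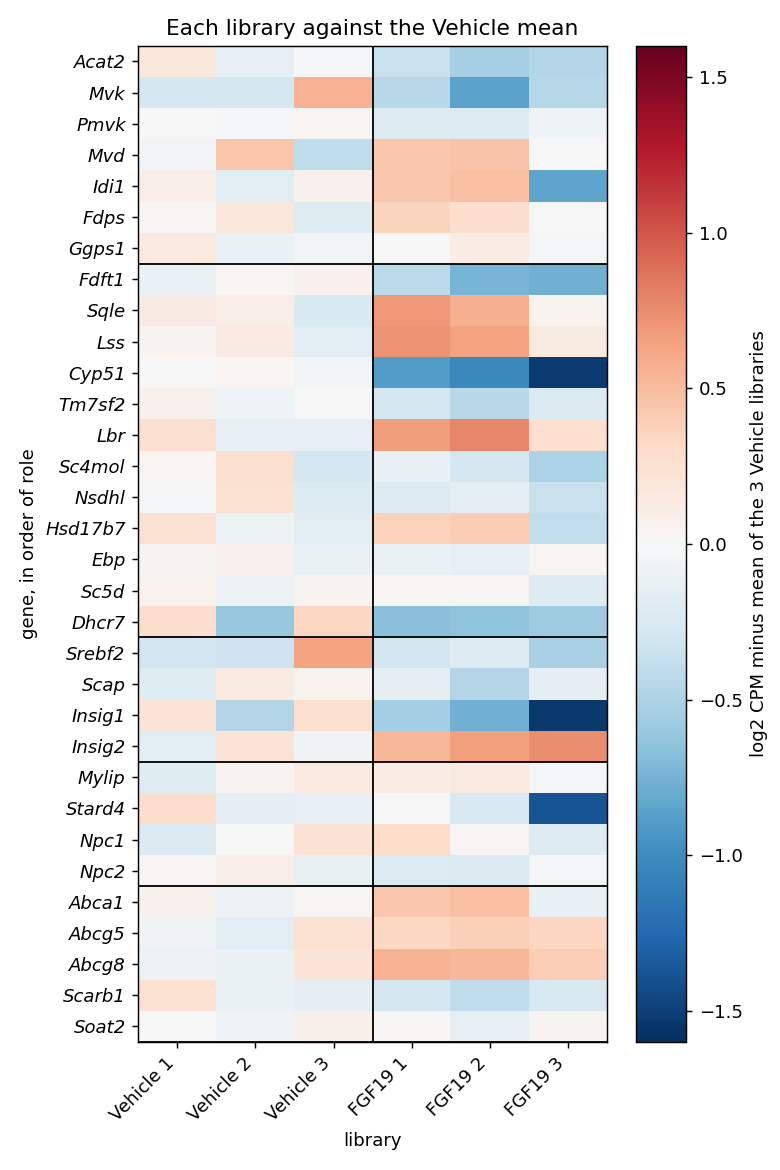
Log2 deviation of each tested cholesterol gene in each of the 6 mice from the mean of the vehicle mice, ordered by role. Cyp51, Fdft1 and Insig1 are low in all FGF19 mice, Insig2 and Abcg8 high in all of them, and FGF19 replicate 3 is lower than its group for Idi1, Stard4 and Sqle.

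The median deviation of the 19 synthesis enzymes from the vehicle mean was 0.04, -0.02 and -0.04 on the log2 scale in the vehicle mice and -0.11, -0.13 and -0.23 in the FGF19 mice. Without FGF19 replicate 3, 6 of the 32 genes were called higher (Sqle, Lss, Lbr, Insig2, Abca1 and Abcg8) in place of 2, while calls over all genes also went from 573 to 1015 higher and from 357 to 926 lower. Sqle, Lss, Lbr, Abca1 and Tm7sf2 were not called when any other 1 library was left out.

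Beyond these genes, 44 others that act on the same sterols and isoprenoids were listed, and 40 were tested. They cover SREBP cleavage and sterol-triggered degradation, LXR and its targets, sterol transfer, oxysterol and ester enzymes, electron donors, and the isoprenoid branches. Of the 40, 3 passed an adjusted p of 0.05 (7.5%), against 7.41% of all genes tested, and all of them were higher. At an unadjusted p of 0.01, 4 were higher and 4 lower, where 6.20% and 4.98% of all genes were; the median log2 fold change was -0.02. Dhdds, which starts dolichol synthesis from farnesyl diphosphate, rose from 26.4 ± 1.25 to 39.98 ± 2.97 CPM (SD, n = 3), a log2 fold change of 0.60 (edgeR's quasi-likelihood test, adjusted p = 0.00576). Osbp, an oxysterol-binding protein that moves cholesterol to the Golgi, rose from 54.9 ± 2.20 to 84.7 ± 15.0 CPM, a log2 fold change of 0.63 (edgeR, adjusted p = 0.0189). Nceh1, a cholesteryl ester hydrolase, rose from 35.4 ± 4.98 to 50.3 ± 5.79 CPM, a log2 fold change of 0.51 (edgeR, adjusted p = 0.0421). Among the 8 genes of SREBP cleavage and sterol-triggered degradation log2 fold changes ranged from -0.29 to 0.12, and among the 4 genes of the LXR group from -0.15 to 0.27.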

How the data were processed

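Liver RNA of 6 mice was sequenced as paired-end reads, 3 libraries from vehicle-treated and 3 from FGF19-treated mice, grouped by the sample labels. Per the submitters' processing notes, reads were trimmed with Trimmomatic 0.36 and aligned to mm9 with STAR; the notes and the methods name different STAR versions. The deposited counts are raw numbers of reads per gene, which the authors made with featureCounts 1.5.2; per the file headers strand was not used, mates were counted separately, and reads that align to several places or to several genes were left out. A deposited table of the authors' own comparison (fold changes, mean log2 CPM, p-values and FDR) was not used.

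Counts were filtered with filterByExpr (minimum count 10) and compared with edgeR 4.0.16 in R 4.3.3, by the quasi-likelihood test on TMM-scaled libraries, without covariates, and p-values were adjusted by Benjamini-Hochberg over 12559 genes. The script was tested on simulated data. CPM are on TMM-scaled totals, and RPKM divide CPM by the exon length in the files. The SE is the log2 fold change divided by the root of the F statistic. An exact permutation test of 3 against 3 mice cannot go below p = 0.1, so none is given. No libraries differed by less than sampling noise: chi-square per degree of freedom was 7.10 to 33.2 within groups and 57.2 to 83.5 between them.

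The genes, lists and tests were chosen with earlier results of these data known. All genes of the list with a row in the count files are named; other pathway genes are named where the adjusted p was under 0.05. The alternatives were DESeq2 1.42.0, no TMM, RLE factors, no filter, a filter of 1 CPM, the likelihood ratio and exact tests, limma-voom (limma 3.58.1), a replicate block, and each library left out. Promoters were searched in RefSeq windows of GRCm38.p6, another build than the counts. Fdft1, Fdps, Npc1, Scarb1, Soat2, Sqle and Stard4 were not matched.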

Additional observations from a re-analysis of the deposited data

How the results depend on the processing

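Of 480 results (32 genes under 9 other settings and 6 fits that each left out 1 library), 440 kept their direction and side of the threshold, 14 lost the call, 16 gained one and 10 reversed. In the main fit 27 of the 32 genes were not called, so most of the 440 were genes that stayed uncalled. Of the 6 fits with 1 library left out, Acat2 kept its call in 1 and Abcg8 in 2. Only Cyp51 was called in all 15. At an adjusted p of 0.05, 3 genes were lower: 5 with no filter, by the likelihood ratio test and by the exact test, and between 1 and 4 with 1 library left out (1 without vehicle replicate 3). The 2 higher genes became 3 by the likelihood ratio and exact tests, 1 with the replicate block and between 1 and 6 with 1 library left out (6 without FGF19 replicate 3). At p of 0.01, the 6 lower genes became between 2 and 6 with 1 library left out, and the 2 higher genes became 4 by the likelihood ratio test, the exact test and the replicate block, and between 2 and 6 with 1 library left out. The median of the synthesis enzymes, -0.07, ranged from -0.119 to -0.0511 with 1 library left out, and moved by less than the spread between vehicle mice under the other settings. The sign of 6 uncalled genes reversed with 1 library left out: Idi1 (-0.0698 to 0.457, reversed without FGF19 replicates 1 and 2), Ggps1 (-0.0214 to 0.113, reversed without vehicle replicate 2 and FGF19 replicate 2), Sc5d (-0.0955 to 0.0278, reversed without FGF19 replicate 3), Mylip (-0.0176 to 0.156, reversed without vehicle replicate 1), Npc1 (-0.102 to 0.164, reversed without vehicle replicate 1 and FGF19 replicate 1), Soat2 (-0.0623 to 0.0327, reversed without vehicle replicate 3 and FGF19 replicate 2). The cause was not tested. Over all genes, 357 were lower and 573 higher; counts were 579 and 780 by the likelihood ratio test, 566 and 768 by the exact test, and 107 and 236 without vehicle replicate 3.

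Equal replicate numbers gave no sign of pairing: deviations of same-numbered samples correlated at -0.0248, -0.161 and -0.168 across genes. Those of differently numbered samples correlated at -0.120 to 0.214. Deviations from a mean of 3 mice are tied to each other, so these values cannot settle whether mice were paired. The replicate block took the calls over all genes to 164 lower and 370 higher, and ended those of Acat2 (adjusted p = 0.0967, edgeR) and Abcg8 (adjusted p = 0.0685, edgeR). Of the 32 cholesterol genes tested, Idi1, Lbr and Mvd reached the lowest counts in a library (66, 74 and 78), and the part of depth in their spread was not tested.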
